A study of Mus musculus with 12 samples.

Results

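Ceruloplasmin, the 4 Steap metalloreductases, transferrin and its receptor, ferritin heavy chain, ferroportin and the transporter DMT1 form a set of 10 genes that carry iron into, through and out of cells. The 10 genes (Cp, Steap1, Steap2, Steap3, Steap4, Trf, Tfrc, Fth1, Slc40a1 and Slc11a2) were looked up by symbol in a table of 56860 named genes, and all 10 passed the filter on low counts that left 16600 genes. They were selected on the same contrast that is described here, with earlier results for some of them known, so their differences between the groups are given as a description. How many met the call rule of the fit across all genes is given as a count, which is no independent test of them, and no p-value is given for a member. RNA was sequenced from primary mouse oligodendrocytes (OLs) of strain C57BL/6J in 12 libraries. The siEgr2 group (n = 6) received an siRNA against Egr2, a zinc finger transcription factor of myelinating glia, and the siNC group (n = 6) received a scrambled siRNA. All 12 libraries came from cells harvested after 48 h, and the comparison asks what a reduction of Egr2 does to the transcripts of these cells. The study's methods describe the reagent once as an siRNA and once as an interfering plasmid. They take the cells from newborn mouse cortex, purified with an antibody to the OL surface antigen O4 and then differentiated, while the labels name the medial prefrontal cortex, and both groups share this origin. No source says that the 6 libraries of a group came from separate cultures, so p-values measure only the spread between these libraries, which may be technical.

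Iron enters most cells bound to transferrin, which is taken up by the transferrin receptor. In the acid endosome the metal is released, reduced by a Steap metalloreductase and carried into the cytosol by DMT1. Ferritin, a shell of heavy and light chains, stores what is not used, and ferroportin carries iron out of the cell, where the copper enzyme ceruloplasmin oxidizes it. Oligodendrocytes are among the most iron-rich cells of the brain and make transferrin themselves, and astrocytes are a main source of ceruloplasmin in the brain.

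Several of these mRNAs carry an iron-responsive element, a hairpin with a CAGUGN loop and an unpaired C on its 5′ side that iron regulatory proteins bind when iron is scarce. In a 5′ untranslated region the bound hairpin holds back translation, and in the 3′ region of the transferrin receptor mRNA it slows decay of the mRNA. The hairpins are shown because they separate the members whose mRNA level can follow cell iron through this system from those where the system acts on translation. A search of the annotated untranslated regions (an unpaired C, 5 bases, the loop, and 5 bases pairing with the first 5, G-U pairs allowed) found the pattern in 3 of the 10 members (30.0%), against 160 of 21877 protein-coding genes (0.731%). Each sequence is 23 bases of the sense strand in GENCODE M21 transcripts, 5′ to 3′, with the 6 loop bases in capitals.
Fth1, 5′ untranslated region, GRCm38 chr19:9982735-9982757, plus strand: ctgcttcaaCAGTGCttgaacgg
Slc40a1, 5′ untranslated region, GRCm38 chr1:45925468-45925490, minus strand: cttcagctaCAGTGTtagctaag
Tfrc, 3′ untranslated region, GRCm38 chr16:32631222-32631244, plus strand: tatcggaagCAGTGCcttccata
Tfrc, 3′ untranslated region, GRCm38 chr16:32631601-32631623, plus strand: tatcgggagCAGTGTcttccata
Tfrc, 3′ untranslated region, GRCm38 chr16:32631666-32631688, plus strand: tatcggagaCAGTGAtctccata
Tfrc, 3′ untranslated region, GRCm38 chr16:32631713-32631735, plus strand: tatcgggaaCAGTGTttcccata
Ftl1, the ferritin light chain and not a member, 5′ untranslated region, GRCm38 chr7:45459782-45459804, minus strand: ttgcttcaaCAGTGTttgaacgg
All 4 Tfrc matches lie in transcript Tfrc-201, so that this mRNA holds more copies of the hairpin than the other 2 members with 1 each. For Slc11a2 no match was found, which says only that the letters searched are not in its annotated untranslated regions. A match is a description of the sequence, and binding was not measured.

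The siNC libraries held 28682946 to 39383014 counts and the siEgr2 libraries 8034251 to 16683677, so low genes are measured with fewer reads after siEgr2. The 18S ribosomal RNA entry Rn18s-rs5 took 0.142% to 1.05% of counts in siNC and 10.5% to 16.5% in siEgr2. With 13 structural RNA genes, this entry among them, left out of the fit, 3 members were called lower and 0 higher by the rule below. Of the 16588 genes in that fit, 825 were called lower and 444 higher. The part of the 18S reads in the results below was not tested beyond this. The siEgr2 libraries fell into 3 close pairs, 1 with 2, 3 with 5 and 4 with 6, at a chi-square statistic of 7.09 to 8.24 per gene against 12.3 to 25.0 for the other 12 siEgr2 pairs, and their 18S shares paired in the same way (13.8% and 13.9%, 10.5% and 10.7%, 16.3% and 16.5%). In siNC, libraries 1 with 5 and 3 with 6 formed 2 such pairs (12.5 and 13.2, against 20.2 to 36.7). No label says that the libraries of a pair share a culture, and if they do, the SEs and p-values below, which take n = 6 in each group, are too small. Each close pair was also summed to 1 sample, a choice made after the data were seen. With the siEgr2 pairs summed, 3 members were called lower and 0 higher, beside 841 lower and 403 higher of 18051 genes. With the pairs of both groups summed, 3 members were called lower and 0 higher, beside 652 lower and 319 higher of 17726 genes. Egr2 itself was low in both groups. It ranged from 3.89 to 7.06 CPM (counts scaled to the size of the library, with edgeR's TMM factors) in siNC and from 2.22 to 4.86 in siEgr2, a log2 fold change of -0.51 (SE 0.21) that did not pass edgeR's quasi-likelihood test (Benjamini-Hochberg adjusted p = 0.0981). Of 24 alternative fits, 1 called Egr2 lower, the fit scaled by library totals alone (-0.70).

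A gene was called where edgeR's quasi-likelihood test gave an adjusted p below 0.05 and the log2 fold change lay beyond 0.5 in either direction. By this rule 3 of the 10 members, Steap4, Cp and Fth1, were called lower after siEgr2 and 0 higher, and DESeq2 and limma-voom also gave 3 and 0 (0 were higher at an unadjusted p below 0.05). Among all 16600 genes tested with edgeR, 844 (5.08%) were called lower and 437 (2.63%) higher. At the adjusted p alone, in either direction, 5 members and 3300 of all genes (19.9%) passed, and the added members were Trf and Slc11a2, both lower. In 4 members every siEgr2 library lay below every siNC library, as in 1162 of all genes (7.0%). Because the contrast chose the members, nothing is read from these counts. The log2 fold change was below 0 in 7 of the 10, with a median of -0.31, where the median over all genes tested was 0.0046.

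**Figure D1:**
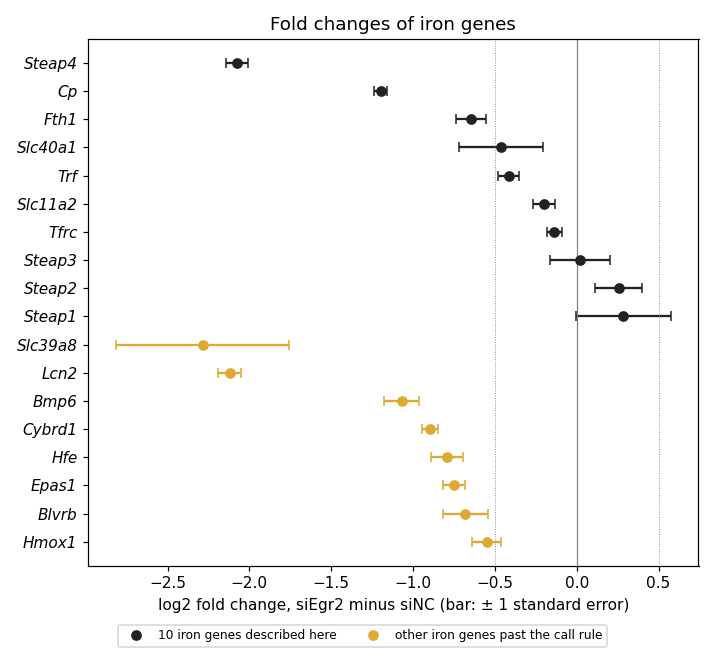
Log2 fold change (siEgr2 minus siNC, horizontal axis) with 1 standard error on each side for the 10 members (black) and for the other iron genes that met the call rule (yellow), with dotted lines at -0.5 and 0.5. Steap4 at -2.08 and Cp at -1.20 stand farthest to the left among the members, and Steap1, Steap2 and Steap3 lie to the right of 0.

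Among the uptake genes, the ligand separated the groups, and the receptor and the transporter overlapped. Trf encodes transferrin, the iron carrier that OLs synthesize (GRCm38 chr9:103204001-103230444). It lay at 61.4, 71.8 and 73.8 CPM (lowest, median, highest) in siNC and at 45.4, 52.0 and 55.9 CPM in siEgr2. All 6 siEgr2 libraries were below the lowest siNC library, and the siNC libraries 2 and 4 were lower than the other 4. The log2 fold change was -0.42 (SE 0.06), which left 75.0% of the siNC mean and is inside the fold threshold. In the annotation, 63.5% of the Trf exon bases also belong to a transcript model named Gm20425 on the same strand, which has no entry in the table.

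Tfrc, the transferrin receptor (GRCm38 chr16:32608920-32632794), carries the 4 hairpins shown above. Its lowest, median and highest values were 68.5, 74.3 and 80.5 CPM in siNC and 63.1, 68.3 and 70.2 CPM in siEgr2. The groups overlapped, with 3 siEgr2 libraries below the lowest siNC library, and the log2 fold change was -0.14 (SE 0.05). Slc11a2 encodes DMT1, which moves ferrous iron across the endosomal membrane (GRCm38 chr15:100387898-100425072). It ranged from 46.6 to 52.5 CPM in siNC, with a median of 50.1, and from 38.9 to 49.9 CPM in siEgr2, with a median of 41.9. In siEgr2, 4 libraries were below all siNC libraries while replicates 2 and 5 lay within the siNC range, and the log2 fold change was -0.20 (SE 0.07).

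Of the ferritin chains, the heavy chain met the call rule and the light chain did not. Fth1 encodes the ferritin subunit with ferroxidase activity (GRCm38 chr19:9980598-9985098). Its lowest, median and highest values were 1031, 1043 and 1162 CPM in siNC and 593, 648 and 917 CPM in siEgr2. The groups did not overlap, but siEgr2 replicate 2, at 917 CPM, stood apart from the other 5 siEgr2 libraries, which lay between 593 and 684 CPM. The log2 fold change was -0.65 (SE 0.09), or 63.9% of the siNC mean, and -0.75 without that library.

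Ftl1, the light chain, carries the hairpin shown above and ranged from 729 to 902 CPM in siNC and from 699 to 730 CPM in siEgr2. Its log2 fold change of -0.22 (SE 0.04) passed the adjusted p of edgeR's quasi-likelihood test (Benjamini-Hochberg adjusted p = 0.00123) but not the fold threshold. Within each library, there were 1.21 to 1.44 Fth1 reads for every Ftl1 read in siNC. In siEgr2 the ratio was 0.848 to 0.959 in 5 libraries and 1.26 in replicate 2, the library where Fth1 stood apart. How reads shared by near-identical copies were assigned is not given in the sources used here, and the annotated copies were small in the table, at most 2.23% of Ftl1 for Ftl1-ps1 and 0.0703% of Fth1 for Fth-ps2.

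On the export side, the oxidase separated the groups and the exporter did not. Cp encodes ceruloplasmin, the copper ferroxidase that loads iron onto transferrin outside the cell (GRCm38 chr3:19957054-20009145). It lay at 330, 340 and 357 CPM (lowest, median, highest) in siNC and at 139, 148 and 158 CPM in siEgr2. No library of one group came near the other, and within a group the spread was small (341.6 ± 9.49 CPM in siNC and 148.9 ± 7.03 CPM in siEgr2, SD, n = 6). The log2 fold change was -1.20 (SE 0.04), a 2.29-fold lower level. Of its exon bases, 1.13% overlap Hps3 on the opposite strand, an entry with 108 to 674 counts.

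Slc40a1 encodes ferroportin, the only known cellular iron exporter (GRCm38 chr1:45908068-45926523). Its lowest, median and highest values were 5.91, 8.79 and 10.2 CPM in siNC and 4.04, 4.59 and 10.2 CPM in siEgr2, on 50 to 155 counts per siEgr2 library. The siEgr2 libraries fell into 4 values at or below 4.87 CPM and 2 values, 9.57 in replicate 3 and 10.2 in replicate 5, at the top of the siNC range. These 2 libraries are one of the close pairs and also had the lowest 18S shares among the siEgr2 libraries, 10.5% and 10.7%, and the part of this in the values was not tested. The log2 fold change of -0.46 had an SE of 0.25, and leaving out replicate 3 alone moved it to -0.66.

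**Figure D2:**
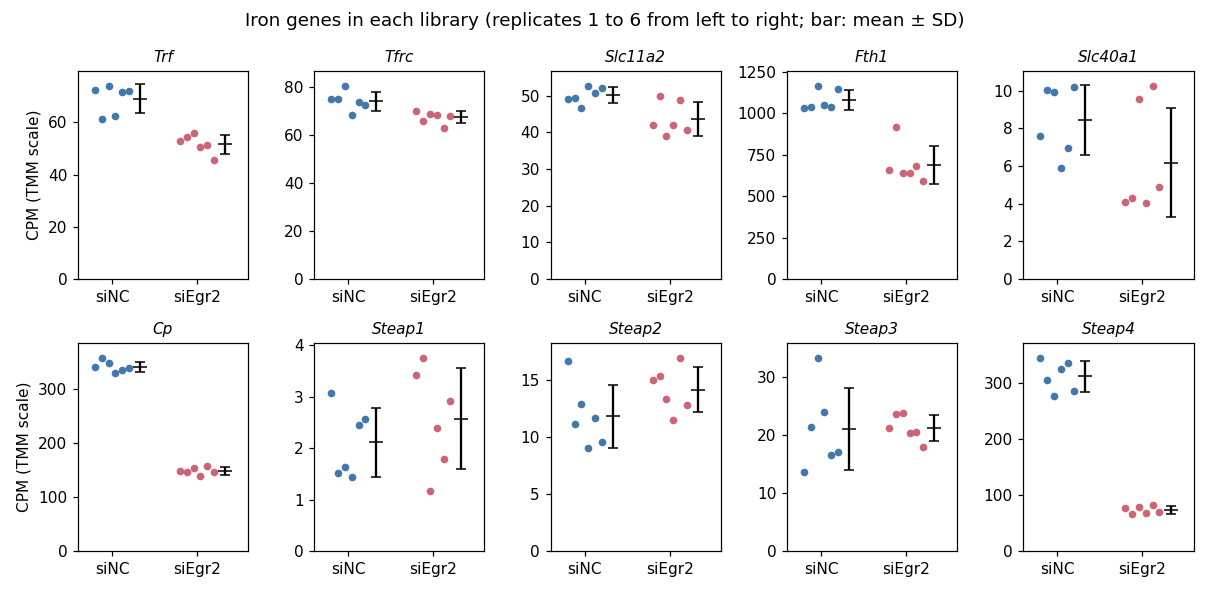
CPM on the TMM scale (vertical axes, each from 0) of the 10 members in each siNC (blue) and siEgr2 (red) library, with the mean and SD of 6 libraries beside the points. Trf, Fth1, Cp and Steap4 do not overlap between the groups, 1 siEgr2 library is high for Fth1 at 917 CPM, and 2 are high for Slc40a1 at 9.57 and 10.2 CPM.

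The 4 Steap genes did not move together. They encode membrane metalloreductases that reduce ferric iron and cupric copper (Steap1 needs a partner for the reaction), and Steap3 is the endosomal ferrireductase of red cell precursors. Steap4, induced by inflammatory signals in other tissues, differed most of the 10 members (GRCm38 chr5:7960457-7982213). It lay at 276, 315 and 343 CPM (lowest, median, highest) in siNC and at 65.9, 73.6 and 83.0 CPM in siEgr2. The highest siEgr2 library was far below the lowest siNC library, and the log2 fold change was -2.08 (SE 0.07), a 4.22-fold lower level.

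Steap3 (GRCm38 chr1:120190757-120272705) ranged from 13.7 to 33.2 CPM in siNC and from 18.03 to 23.8 CPM in siEgr2. All siEgr2 libraries lay inside the siNC range, which siNC replicate 3 stretched upwards, and the log2 fold change was 0.02 (SE 0.18). Steap2 (GRCm38 chr5:5664829-5694578) ranged from 9.07 to 16.7 CPM in siNC and from 11.5 to 16.9 CPM in siEgr2, with 1 siEgr2 library above all siNC libraries. Its log2 fold change was 0.26 (SE 0.14). Steap1 (GRCm38 chr5:5736317-5749326) ranged from 1.43 to 3.08 CPM in siNC and from 1.17 to 3.74 CPM in siEgr2 and rested on 14 to 51 counts per siEgr2 library. The groups overlapped, with 2 siEgr2 libraries above and 1 below all siNC libraries, and the log2 fold change was 0.28 (SE 0.29). Steap1, Steap2 and Steap4 all lie on chromosome 5, and of these only Steap4 separated the groups.

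The promoter of Steap4 is shown because it lies before the member with the greatest difference. RefSeq promoters (GRCm38.p6, 250 bases before to 50 after each start) were matched by symbol for 7 members, in 15 windows, and were not found for Trf, Slc40a1 and Slc11a2. The 135 bases before the annotated Steap4 starts, GRCm38.p6 chr5:7960322-7960456 on the plus strand, hold a STAT pattern (TTCNNNGAA) and a C/EBP pattern (TTGCNNAA, searched on both strands), in capitals in this order.
Steap4 promoter: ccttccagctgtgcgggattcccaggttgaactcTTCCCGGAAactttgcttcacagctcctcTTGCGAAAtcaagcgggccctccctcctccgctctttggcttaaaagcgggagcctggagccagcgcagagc
Of all 32851 promoter windows, each running from 250 bases before to 50 after a start and so longer than the stretch printed, 8.30% hold the STAT pattern, 10.8% the C/EBP pattern and 337 (1.03%) hold both. An EGR pattern (GCGNGGGCG, in 5.55% of windows) was found for 1 member, Fth1, as CGCCCGCGC on the other strand, starting 76 bases before the start. The C/EBP pattern was also found for Cp, Steap3 and Fth1, and the STAT pattern for Steap2, whose groups overlapped. A hypoxia pattern (ACGTG, in 19.6% of windows) was found for Tfrc and Steap2, and an antioxidant pattern (TGACNNNGC, in 12.4%) for Steap2. None of these letters shows that a factor binds there.

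Levels between genes were compared per kilobase of exon. In siNC, Fth1 was highest at 310.5 CPM per kilobase, followed by Steap4 at 98.8, Cp at 35.7, Trf at 20.8, Tfrc at 12.001, Slc11a2 at 7.88, Steap3 at 3.68, Steap1 at 1.54, Steap2 at 0.97 and Slc40a1 at 0.94 CPM per kilobase. Neighbours in this order did not overlap between their 6 libraries, except Steap1 with Steap2 and Steap2 with Slc40a1. In siEgr2, Steap4 was still second at 23.4 CPM per kilobase, while Trf and Cp both lay at 15.6 CPM per kilobase. With the longest transcript in place of the exon union as length, Cp in siEgr2 (32.6 CPM per kilobase) stood above Steap4 (23.4) and Trf (20.1), and Slc40a1 in siNC (2.15) stood above Steap1 (1.72) and Steap2 (1.14). Steap4 thus exceeded the other 3 Steap genes in both groups.

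**Figure D3:**
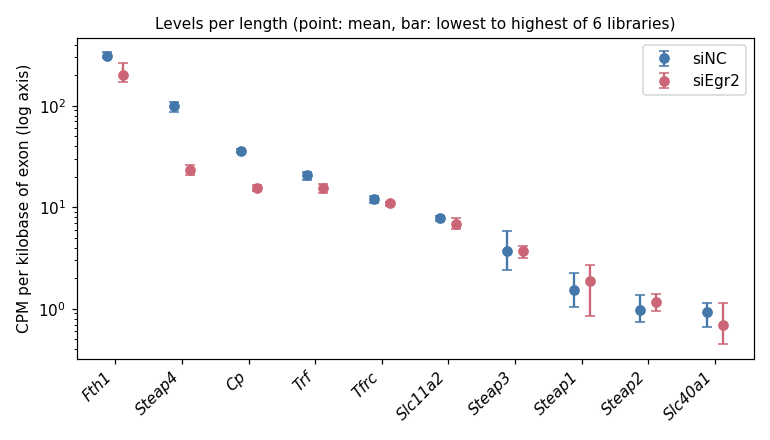
CPM per kilobase of exon (log axis) of the 10 members, ordered by their level in siNC, with the mean (point) and the lowest to highest of 6 libraries (bar) in siNC (blue) and siEgr2 (red). Fth1, Steap4 and Cp lead in siNC at 310.5, 98.8 and 35.7, and the bars of the groups separate for Fth1, Steap4, Cp and Trf.

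The libraries held RNA of several glial types. Astrocyte markers were lower after siEgr2, as were Cp, Steap4 and Fth1, and some markers of OL precursors were higher. The myelin genes Mbp and Cnp were abundant, in cells that the study names as OLs. Of 10 myelinating OL markers 0 were called by edgeR, DESeq2 or limma-voom (3 were lower at edgeR's adjusted p alone and 6 at its unadjusted p), with a summed level of 7283 to 8308 CPM in siNC and 6841 to 7122 in siEgr2. Of 9 astrocyte markers, 5 were called lower by edgeR and 6 each by DESeq2 and limma-voom, 7 were lower at edgeR's adjusted p alone, and 8 did not overlap between the groups. Their summed level was 8245 to 8946 CPM in siNC and 5293 to 5976 in siEgr2, with a median log2 fold change of -0.60. Slc1a3, a glutamate transporter, had a log2 fold change of -0.85 (SE 0.04), the water channel gene Aqp4 one of -0.80 (SE 0.04), Aldh1l1 one of -0.74 (SE 0.06), Slc1a2 one of -0.61 (SE 0.04) and Gfap one of -0.56 (SE 0.03). In bulk RNA, fewer cells of a type and less RNA per cell cannot be told apart. Of 7 markers of OL precursors, Pdgfra (log2 fold change 0.56, SE 0.04) and Cspg4 (0.56, SE 0.05) were called higher by edgeR. DESeq2 and limma-voom called 3 each, 4 were higher at edgeR's adjusted p alone and 5 at its unadjusted p. The log2 fold change was below 0 in 0 of the 7, and the list summed to 2730 to 3121 CPM in siNC and 3426 to 3714 in siEgr2. With libraries scaled by their totals alone, Pdgfra (0.37) and Cspg4 (0.38) passed the adjusted p but missed the fold threshold.

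Of 9 microglial markers, 5 were tested and 0 called by edgeR, DESeq2 or limma-voom (0 also at edgeR's unadjusted p), at a summed 27.1 to 34.6 CPM in siNC and 23.3 to 33.7 in siEgr2, with Aif1 and Itgam at 0 counts in every library. Neuronal markers summed to 129 to 144 CPM in siNC and 112 to 125 in siEgr2, with 0 of 5 called by any of these tools (1 lower and 1 higher at edgeR's adjusted p alone, and no more at its unadjusted p). Markers of fibroblasts and pericytes summed to 365 to 614 CPM in siNC and 364 to 440 in siEgr2, with Pdgfrb (-0.56, SE 0.10) and Rgs5 (-0.78, SE 0.18) lower and a median log2 fold change of -0.45. With the close pairs of both groups summed, the Rgs5 call was lost (edgeR, Benjamini-Hochberg adjusted p = 0.0650). Without siNC replicate 2, Pdgfrb missed the fold threshold (-0.49). Of 3 endothelial markers tested, Flt1 was lower (-1.35, SE 0.37, at most 22 counts in siEgr2), a call lost when all libraries were thinned to the smallest total (-1.11), and Cldn5 was at 0 counts throughout. Choroid plexus and ependymal markers summed to 61.0 to 102 CPM in siNC and 46.8 to 59.4 in siEgr2, with Otx2 lower (-1.69, SE 0.47, at most 18 counts in siEgr2), a call lost in edgeR with a replicate block (-1.78, Benjamini-Hochberg adjusted p = 0.0568) and with the close pairs of both groups summed (-1.62, adjusted p = 0.0597). The part of any of these cell types in the values of the members was not tested.

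Set against the reads of the 9 astrocyte markers in the same library, Cp and Steap4 still separated the groups and Fth1 did not. There were 37.5 to 43.3 Cp reads per 1000 astrocyte marker reads in siNC (median 38.8) and 24.2 to 29.3 in siEgr2 (median 25.4), a log2 ratio of group means of -0.60 beside the -1.20 of Cp itself. For Steap4 the values were 32.7 to 38.4 in siNC (median 37.1) and 11.3 to 15.0 in siEgr2 (median 12.6), a log2 ratio of -1.47. For Fth1 they were 115 to 137 in siNC and 99.2 to 157 in siEgr2, a log2 ratio of -0.05, and the groups overlapped. Without siEgr2 replicate 2, where Fth1 stood apart, the highest siEgr2 value was 121, the groups still overlapped and the log2 ratio was -0.14. Fth1 was not set against the myelin markers, whose sum differed less between the groups than that of the astrocyte markers. How far the Fth1 ratio depends on the choice of markers was not tested. Trf, set against the 10 myelin markers, ranged from 7.79 to 10.1 reads per 1000 in siNC and from 6.49 to 8.07 in siEgr2, which overlapped, with a log2 ratio of -0.26. Steap4 also differed from Cp, with 0.794 to 1.01 Steap4 reads per Cp read in siNC and 0.451 to 0.524 in siEgr2.

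**Figure D4:**
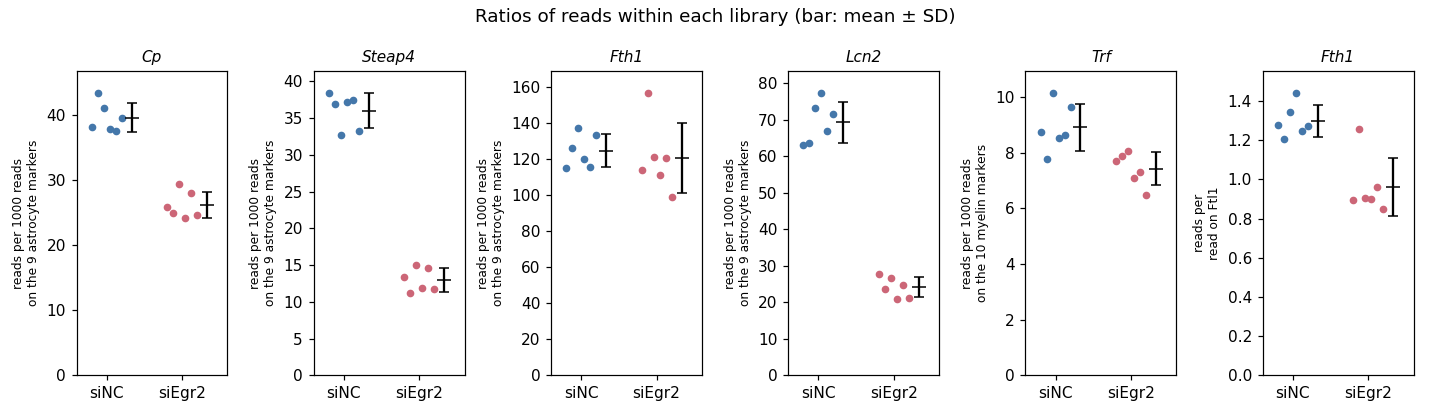
Reads of a gene divided by reads of a reference set in the same library (vertical axes from 0), for siNC (blue) and siEgr2 (red), with mean and SD of 6 libraries. Cp, Steap4 and Lcn2 per 1000 astrocyte marker reads separate the groups, Fth1 per 1000 astrocyte marker reads (log2 ratio -0.05) and Trf per 1000 myelin marker reads (-0.26) overlap, and 1 siEgr2 library is high for Fth1 per Ftl1 read at 1.26.

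Beyond the 10 members, 70 other genes of iron and heme handling were listed by role, and 59 had enough counts to test. Of these, 8 were called lower and 0 higher by edgeR, and also by DESeq2 and by limma-voom, beside the 5.08% and 2.63% of all genes tested with edgeR. Of the 8, Lcn2 and Slc39a8 were already known to be lower when the list was written, so nothing is read from this count or from that of the uptake list, which holds both. All lists were written with earlier results of these data known, so the adjusted p of a listed gene is no independent test. At edgeR's adjusted p alone there were 15 lower and 2 higher, and 3 higher at its unadjusted p, with a median log2 fold change of -0.08. The uptake list held 4 of the 8, among 11 tested, with a median of -0.56. Lcn2 encodes lipocalin 2, a secreted protein that binds iron-carrying siderophores and marks reactive astrocytes. It ranged from 524 to 673 CPM in siNC and from 120 to 160 in siEgr2, a log2 fold change of -2.12 (SE 0.07, given without a test), and it was 69.2 per 1000 astrocyte marker reads in siNC and 24.2 in siEgr2 (medians). Cybrd1, a ferric reductase of the gut surface, ranged from 169 to 187 CPM in siNC and from 86.5 to 104 in siEgr2, a log2 fold change of -0.90 (SE 0.05, edgeR, Benjamini-Hochberg adjusted p = 3.01e-09). Hfe, the hemochromatosis protein that binds the transferrin receptor, fell from 18.9 to 22.8 CPM to between 9.94 and 13.9. The metal transporter gene Slc39a8 was also lower (log2 fold change -2.29, SE 0.53), on 9 counts or fewer in each siEgr2 library and with overlapping groups. The receptor gene Lrp1 (-0.28, SE 0.05), the lipocalin receptor gene Slc22a17 (0.06, SE 0.11) and the transporter gene Slc39a14 (-0.19, SE 0.06) did not meet the call rule.

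In the export and hepcidin list, 1 of 4 tested genes was lower, Bmp6, the signal that raises hepcidin in the liver (30.1 to 35.8 CPM in siNC and 12.2 to 19.5 in siEgr2, log2 fold change -1.07, SE 0.11). Heph, the membrane ferroxidase related to ceruloplasmin, was far less abundant than Cp, at 1.70 to 4.55 CPM in siNC and 1.79 to 3.70 in siEgr2, on a longest transcript of similar length (4743 bases against 4564). Hepcidin itself, Hamp, had at most 3 counts in a siNC library and 5 in a siEgr2 library. In the heme list, 2 of 12 were lower, Hmox1, which opens the heme ring and frees its iron (87.1 to 124 CPM in siNC, 62.4 to 79.5 in siEgr2, log2 fold change -0.55, SE 0.09), and the biliverdin reductase gene Blvrb (-0.68, SE 0.14). Hmox1 missed the fold threshold, though not the adjusted p, without siNC replicate 3 (-0.496) and without siNC replicate 6 (-0.489). Epas1, a hypoxia factor whose mRNA carries an iron-responsive element, was lower among 4 tested genes of that list (85.4 to 109 CPM in siNC, 50.3 to 60.5 in siEgr2, -0.75, SE 0.07).

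The iron sensors and the mitochondrial iron genes showed no called difference. The iron regulatory protein genes Aco1 (-0.09, SE 0.04) and Ireb2 (0.01, SE 0.05) and the gene of their regulator Fbxl5 (0.03, SE 0.09) gave 0 of 3 calls by edgeR, DESeq2 and limma-voom, and 0 at edgeR's unadjusted p. Of 21 mitochondrial iron and iron-sulphur cluster genes, 0 were called by edgeR, DESeq2 or limma-voom. At edgeR's adjusted p alone, Hspa9 (-0.20, SE 0.04) and Bola3 (-0.36, SE 0.09) were lower and 1 gene was higher, and the unadjusted p added none in either direction. The storage chaperone genes Pcbp1 (0.01, SE 0.04) and Pcbp2 (0.04, SE 0.04) did not meet the call rule. Ceruloplasmin needs copper, and of 8 copper genes 0 were called by these tools, with the copper uptake genes Slc31a1 (-0.14, SE 0.04) and Slc31a2 (-0.46, SE 0.12) lower at edgeR's adjusted p alone and no others at its unadjusted p. Slc31a2 was called lower when libraries were scaled by their totals alone (-0.64), with no filter (-0.50) and without siEgr2 replicate 3 (-0.54).

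**Figure D5:**
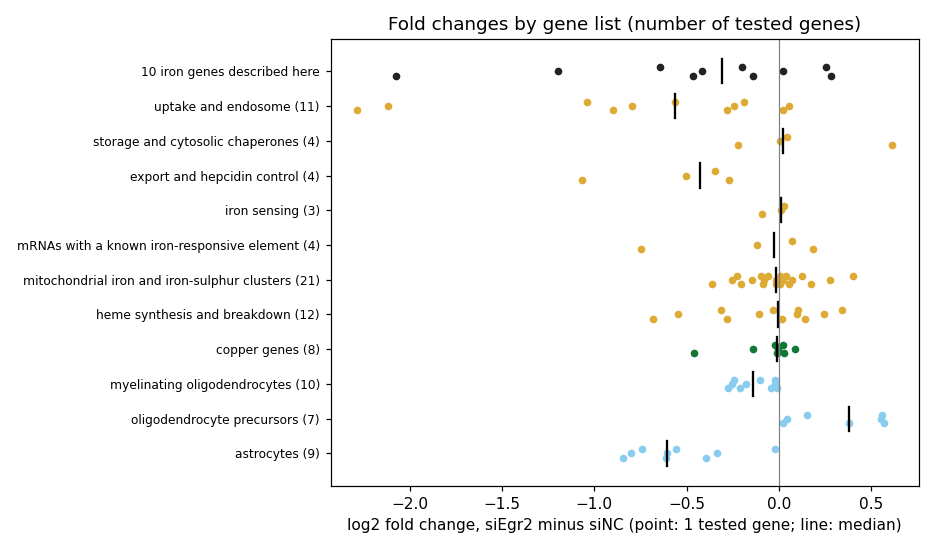
Log2 fold change (siEgr2 minus siNC, horizontal axis) of each tested gene (point) and the median (line) for the 10 members (black), the other iron gene lists (yellow), copper genes (green) and markers of the main glial types (blue). The medians are -0.31 for the members, -0.56 for the uptake list and -0.60 for astrocyte markers, and the iron sensing, mitochondrial, heme and copper lists centre near 0.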

How the data were processed

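Total RNA of 12 libraries (6 siNC, 6 siEgr2) was sequenced, and the authors deposited raw counts of reads per gene symbol with no normalization. The submitters' processing notes name the build mm10, while the aligner, the counting program and the use of strand are not given in the sources used here. A library was assigned to its group by its title, and 1 blank entry was left out. The smallest of 30 within-group chi-square statistics per gene was 7.09, so no pair within a group differed by less than sampling noise, and libraries were not compared across groups by this statistic. Close pairs within a group were kept as separate libraries.

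The analysis used edgeR 4.0.16 under R 4.3.3 (filterByExpr, TMM, robust quasi-likelihood test, Benjamini-Hochberg adjustment over 16600 genes). The script was tested on simulated data. Calls needed an adjusted p below 0.05 and a log2 fold change beyond 0.5 in either direction. The study gives the same values, without naming a test or saying that they apply in both directions. Gene positions came from GENCODE M21 and promoters from RefSeq. The members and all lists (uptake, storage, export and hepcidin control, sensing, mRNAs with iron-responsive elements, mitochondrial, heme and copper genes, and markers of 8 cell types) were chosen with earlier results of these data known. Named genes are the members, Egr2, Rn18s-rs5, all called genes of the lists, and up to 3 of the most abundant uncalled genes of a list. Heph, Hamp, Bola3, Slc31a2, Cldn5, Aif1, Itgam, Ncoa4, Ttr, Hps3, Gm20425 and the ferritin copies are named beyond it where a count or a library called for it, after their values were seen. Protein sequences were not used here, and values of some listed genes are not reported here. Alternatives included DESeq2 1.42.0, limma-voom from limma 3.58.1, other scaling, filters and thresholds, thinning to 8034251 counts, 13 structural RNA genes left out, a replicate block and each library left out in turn. Summing close pairs of libraries to 1 sample was added after the data were seen. Depth limits low genes, and its precision covers counting error only.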

Additional observations from a re-analysis of the deposited data

Results flagged for a closer look

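Fth1 in siEgr2 replicate 2, at 916.9 CPM, lay far from the other 5 siEgr2 libraries, which ranged from 593 to 684 CPM. The total of siNC replicate 6, 39383014 counts, lay far above the other 5 siNC libraries, which ranged from 28682946 to 32460116 counts. These were 2 of 42 groups of 6 libraries examined with Dixon's criterion, and chance alone gives about 2.1. No explanation was tested.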

How the results depend on the processing

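Steap4, Cp and Fth1 met the call rule in all 24 alternative fits, with log2 fold changes of -2.26 to -2.05, -1.38 to -1.18 and -0.83 to -0.61, and Trf met it in 1, with library size only (-0.60). At the adjusted p alone, 5 members, 15 other iron genes and 1877 of all genes were lower, and 2 other iron genes and 1423 of all genes higher. At a log2 fold change over 1, 2 members (Steap4 and Cp), 3 other iron genes and 196 of all genes were lower and 177 higher. With library size only, 1737 were lower and 237 higher, so that 87.99% of calls were lower against 65.9% with TMM, and the all-gene median moved to -0.18 on the log2 scale. DESeq2 called 873 higher, and thinning left 266. Steap3 changed sign with library size only (-0.16), with no filter (-0.022) and among the fits that left out 1 library (-0.076 to 0.20). Other iron genes called higher numbered 0 to 1 when 1 library was left out, the 1 being Ncoa4 without siNC replicate 4. The cause of these shifts was not tested. With the replicate block, 3 members and 775 of all genes were called lower and 349 higher, and the Otx2 call was lost, but the numbers do not pair the libraries: deviations of same-numbered libraries correlated at -0.02 to 0.05, and 2 of 6 correlated best with their own number. With the close siEgr2 pairs summed, an alternative added after the data were seen, 3 members, 8 other iron genes and 841 of all genes were called lower and 403 higher, and with the pairs of both groups summed 3, 8 and 652 lower and 319 higher. The depth of siEgr2 limits Steap1, Slc40a1 and Slc39a8, with at most 51, 155 and 9 counts per library.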

Other observations

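Ncoa4, which encodes the receptor that delivers ferritin to the lysosome, took 1 of 2 levels. It lay between 48.0 and 53.8 CPM in 7 libraries and between 106 and 129 CPM in the other 5, which were siNC replicate 4 and siEgr2 replicates 2, 4, 5 and 6. No library lay between. Its log2 fold change of 0.61 (SE 0.34) did not pass edgeR's quasi-likelihood test (Benjamini-Hochberg adjusted p = 0.253), and an Ncoa4 pseudogene is a separate entry of the table. The gene was picked out after its values were seen.

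Ttr, the choroid plexus marker that encodes transthyretin, was at 28.3 CPM in siNC replicate 4 and at most 2.82 CPM in the other 11 libraries. In the same library Cp and Trf were at 330 and 62.3 CPM, the lowest and the second lowest of the 6 siNC values. The 6 siNC values spanned only 330 to 357 CPM for Cp and 61.4 to 73.8 CPM for Trf. This is 1 library and 1 marker, picked out after the values were seen, and a link to Cp or Trf was not tested.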
